A study of Mus musculus with 22 samples.

Results

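Npy, Nkx2-9, Foxa1 and Foxj3 are 4 genes of neural and developmental regulation that were selected on measured values, their higher FPKM in H2A.Z KD morulae than in control morulae. They are 4 of the 55335 genes of the expression table, found by their symbols, with 1 entry each. Because the contrast between KD and control morulae chose them, their values in morulae are given as a description with no test of the KD effect. Their values at the 2-cell and blastocyst stages come from other embryos and other libraries, and were tested.

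Neuropeptide Y, the product of Npy, is a short secreted peptide of neurons that acts on G protein-coupled receptors and is known for its part in feeding. Nkx2-9 encodes a homeodomain transcription factor of the NK2 class, found in the ventral neural tube where Hedgehog signalling is active. Foxa1 and Foxj3 encode forkhead transcription factors. FOXA1 can bind its sites in closed chromatin and is known from endoderm-derived organs, whereas FOXJ3 is known from skeletal muscle and male germ cells. H2A.Z is a histone H2A variant that replaces H2A in nucleosomes around promoters and enhancers, and H2afz is one of the genes that encode it.

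The study asked how loss of H2A.Z alters gene expression in mouse preimplantation embryos, by Smart-seq2 RNA sequencing of 22 libraries of 15 pooled embryos each. The zygotes came from superovulated B6D2F1 females, 8 weeks old, mated with B6D2F1 males. For H2A.Z KD, about 10 pl of siRNA at 20 µM was injected into zygotes at pronuclear stage 3. The controls of the quantitative PCR in the study were noninjected, but the treatment of the control embryos sequenced is not given in the sources used here, so an effect of the injection itself and one of the knockdown cannot be told apart. 2-cell embryos (4 control and 3 KD libraries) were collected 43 to 44 h after hCG, morulae (4 control and 3 KD) at 78 h, and blastocysts (4 control and 4 KD) at 94 h. The study reported that KD lowered the share of embryos that formed blastocysts. How embryos were picked for the KD blastocyst libraries is not given in the sources used here, so KD and control blastocysts may differ in stage or make-up. Values are FPKM, in which the reads of a gene are scaled by its transcript length and by the reads mapped in the library, and a pool of 15 embryos does not show how single embryos differ.

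The depth of the libraries could be compared only in part. In each library, FPKM times exon length of single-exon genes recurred at multiples of a smallest step, and the inverse of the step gave a relative depth (1000 divided by the step, in arbitrary units) from 14.8 to 28.7. Its median was 25.1 in control and 23.2 in KD 2-cell embryos, 23.9 and 24.0 in morulae, and 17.7 and 19.8 in blastocysts. Of the low values 11.6 to 22.9% lay within 0.02 of a whole step, so read numbers could not be recovered, and the precision of values under 1 FPKM is unknown. The libraries of a group are separate pools, and p-values set a difference between groups against the spread between these pools. Whether the pools came from separate collections or injections is not given in the sources used here.

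H2afz, the target of the siRNA, was low in every KD library. Its FPKM was 1244, 1236, 905 and 1178 in the control 2-cell libraries against 415, 139 and 112 after KD. In morulae it was 1158, 1336, 1511 and 1421 in controls against 30.3, 25.7 and 29.0 after KD. In blastocysts it was 2656, 2431, 1945 and 2055 in controls against 64.2, 67.2, 53.2 and 57.6 after KD. The groups did not overlap at any stage, and the knockdown was least deep at the 2-cell stage, where the mean was 5.14 times lower, against 47.9 times in morulae and 37.5 times in blastocysts. Without KD replicate 1 the 2-cell mean was 9.11 times lower.

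Npy (ENSMUSG00000029819.6) lies on chromosome 6 of GRCm38, from 49822710 to 49829507 on the plus strand, and has 1 annotated transcript of 4 exons. In control 2-cell embryos its FPKM was 0.209, 0.0980, 0.248 and 0, and in KD 2-cell embryos 0, 0.335 and 0.749. Both groups were near 0 and overlapped. In control morulae Npy stood at 2.97, 4.35, 1.41 and 3.01 FPKM, and in KD morulae at 11.3, 15.7 and 16.1. Each KD morula library lay above each control library, and the KD mean was 4.89 times the control mean. In blastocysts Npy was at 0.470, 0.571, 1.34 and 0.868 FPKM in controls and at 3.61, 0.983, 2.49 and 2.80 after KD. Of these KD libraries 3 were above all the controls, and replicate 4, at 0.983, lay among them.

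The 6 groups ran, by mean FPKM of Npy, from KD morulae (14.4 ± 2.64, SD, n = 3) through control morulae (2.94 ± 1.20, SD, n = 4), KD blastocysts (2.47 ± 1.10, SD, n = 4), control blastocysts (0.811 ± 0.388, SD, n = 4) and KD 2-cell embryos (0.362 ± 0.375, SD, n = 3) to control 2-cell embryos (0.139 ± 0.112, SD, n = 4). KD morulae stood apart from all other groups. Each of the other neighbours in this order overlapped.

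Nkx2-9 (ENSMUSG00000058669.7) lies on chromosome 12, from 56611389 to 56613284 on the minus strand, and has 1 annotated transcript of 2 exons. At the 2-cell stage it was listed at 0 in 3 of 4 control libraries and 2 of 3 KD libraries, and the libraries above 0 were at 0.278 and 0.309 FPKM. In control morulae its FPKM was 1.44, 0.281, 0.289 and 0.347, and in KD morulae 4.47, 4.98 and 4.0. Control replicate 1 was well above the other controls but below every KD library. In control blastocysts Nkx2-9 was at 0.143, 0.107, 0.486 and 0.238 FPKM, and in KD blastocysts at 10.9, 7.24, 6.10 and 9.09. The groups were far apart, and the mean after KD was 34.2 times that of the controls (51.3 times without control replicate 5). All control values were under 1 FPKM, where the precision is unknown, so the size of this fold is uncertain.

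By mean FPKM, Nkx2-9 was highest in KD blastocysts (8.33 ± 2.11, SD, n = 4), then in KD morulae (4.48 ± 0.487, SD, n = 3), control morulae (0.588 ± 0.566, SD, n = 4), control blastocysts (0.243 ± 0.171, SD, n = 4), KD 2-cell embryos (0.103 ± 0.179, SD, n = 3) and control 2-cell embryos (0.0695 ± 0.139, SD, n = 4). The first 3 of these groups did not overlap with each other. The last 4 each overlapped with the next. Of the 4 genes, only Nkx2-9 had its highest mean in KD blastocysts.

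Foxa1 (ENSMUSG00000035451.7) also lies on chromosome 12, from 57540628 to 57546916 on the minus strand. It stayed under 0.21 FPKM in the 2-cell libraries, with 0.0523, 0.116, 0.101 and 0.208 in controls and 0, 0.184 and 0.0887 after KD. In control morulae its FPKM was 2.48, 1.40, 0.752 and 1.06, and in KD morulae 3.34, 4.14 and 3.03. The groups did not overlap, though control replicate 1 came close to the lowest KD library. In control blastocysts Foxa1 was at 0.0262, 0, 0.152 and 0.0163 FPKM, close to absent, and in KD blastocysts at 0.945, 0.586, 1.09 and 0.503. Every KD blastocyst library was above every control, at levels around 1 FPKM or below.

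The order of the group means of Foxa1 was KD morulae (3.51 ± 0.571, SD, n = 3), control morulae (1.42 ± 0.752, SD, n = 4), KD blastocysts (0.781 ± 0.282, SD, n = 4), control 2-cell embryos (0.119 ± 0.0651, SD, n = 4), KD 2-cell embryos (0.0908 ± 0.0918, SD, n = 3) and control blastocysts (0.0486 ± 0.0697, SD, n = 4). KD blastocysts overlapped with control morulae and stood above the 3 lowest groups, which overlapped with each other. In controls, Foxa1 was thus present in morulae and near 0 before and after.

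Foxj3 (ENSMUSG00000032998.16) lies on chromosome 4, from 119537004 to 119629119 on the plus strand, with 10 annotated transcripts. It was the only one of the 4 genes with high values at the 2-cell stage, at 51.8, 52.4, 28.3 and 33.4 FPKM in controls and 49.9, 60.9 and 58.0 after KD. These groups overlapped. In control morulae Foxj3 was at 2.94, 0.773, 0.567 and 1.84 FPKM, and in KD morulae at 4.50, 3.49 and 3.83. The KD libraries were again above all controls, but the controls spread widely. In control blastocysts Foxj3 was at 0.513, 0.976, 0.534 and 0.791 FPKM, and in KD blastocysts at 5.13, 3.29, 6.87 and 2.75. The lowest KD blastocyst library was well above the highest control.

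By group mean Foxj3 ran from KD 2-cell embryos (56.3 ± 5.74, SD, n = 3) and control 2-cell embryos (41.5 ± 12.4, SD, n = 4), which overlapped, down to KD blastocysts (4.51 ± 1.87, SD, n = 4) and KD morulae (3.94 ± 0.514, SD, n = 3), which also overlapped, and then to control morulae (1.53 ± 1.09, SD, n = 4) and control blastocysts (0.703 ± 0.221, SD, n = 4), which overlapped as well. The 3 pairs did not overlap with each other, apart from KD blastocysts and control morulae. The 2-cell value of Foxj3 is uncertain. Frg2f1, named here after its values were seen, lies on the opposite strand (119530308 to 119539529) and shares 2526 bases with the annotated span of Foxj3. Its FPKM was 63.4, 108, 108 and 80.8 in control and 66.4, 101 and 54.2 in KD 2-cell libraries, and under 0.25 in every morula and blastocyst library. Use of strand in making the FPKM is not given in the sources used here, so reads of the 2 genes could not be told apart where they overlap. Gm12959, a processed pseudogene on the opposite strand inside the span of Foxj3, was at most 0.409 FPKM in any library. As both genes were low in morulae and blastocysts, this limit bears mainly on the 2-cell values of Foxj3.

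**Figure D1:**
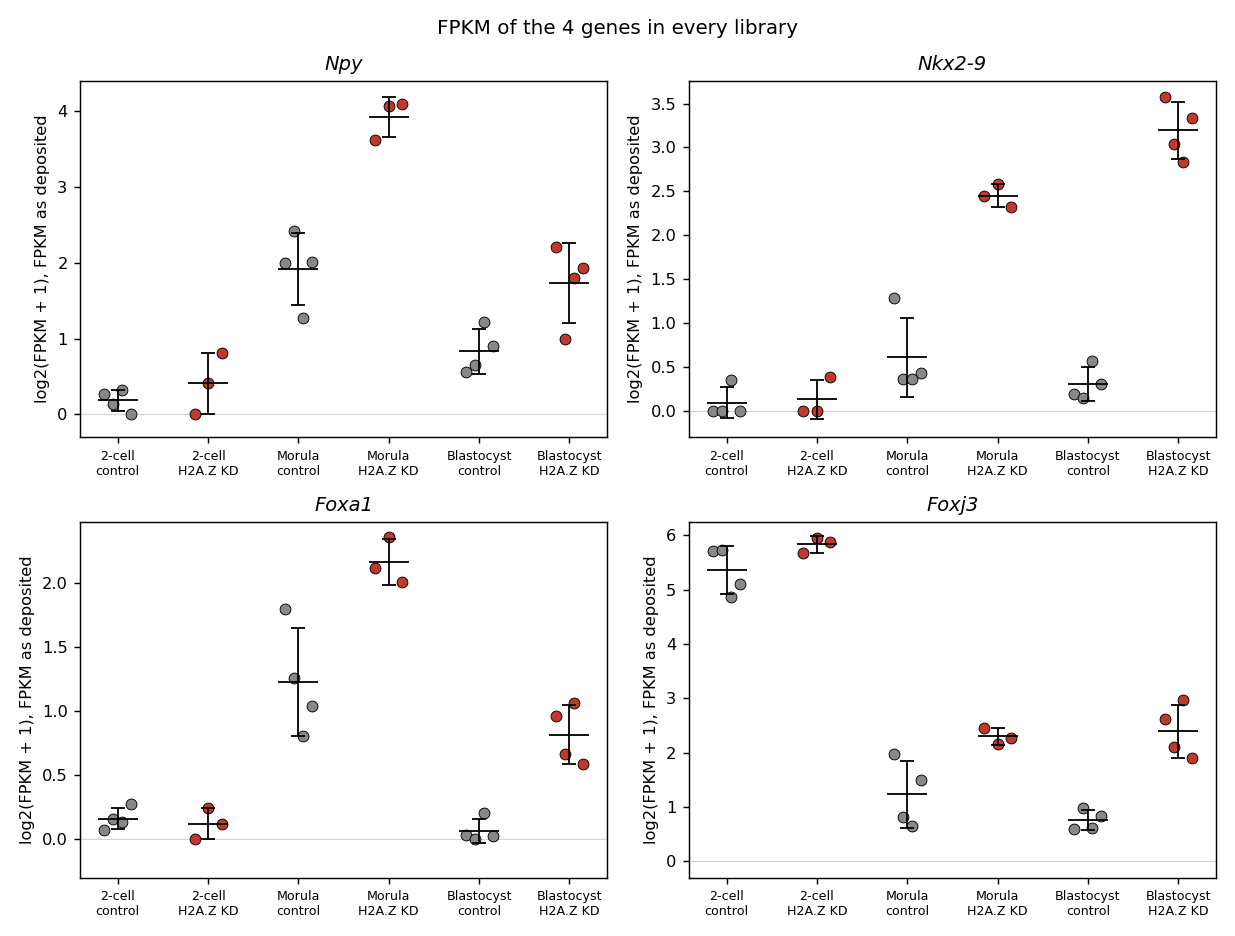
Values of Npy, Nkx2-9, Foxa1 and Foxj3 as log2(FPKM + 1) in the 22 libraries, with 1 point a library, grey for control and red for H2A.Z KD, and a bar with whiskers for the mean ± SD of each group. Each panel has its own vertical axis. In blastocysts the KD libraries of Nkx2-9, Foxa1 and Foxj3 lie above all controls, whereas 1 KD library of Npy lies among the controls.

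Within a library FPKM can be set side by side between genes. In the 7 2-cell libraries Foxj3 was the highest of the 4 genes. In all 7 morula libraries, control and KD, Npy was the highest, and Nkx2-9 was the lowest in each of the 4 controls. In control blastocysts Npy or Foxj3 led and Foxa1 was last. In KD blastocysts Nkx2-9 led in 3 of 4 libraries and Foxj3 in the fourth, replicate 5, and Foxa1 was again last. The 4 genes therefore did not keep a fixed order over the stages. In order, Nkx2-9 was next above Foxa1 in every control blastocyst library, and it led or followed Foxj3 after KD.

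In KD morulae, the values that chose the genes gave log2 fold changes of 2.11 (SE 0.26) for Npy, 1.92 (SE 0.21) for Nkx2-9, 1.15 (SE 0.27) for Foxj3 and 1.02 (SE 0.21) for Foxa1. Here and below a log2 fold change is on the scale of log2(FPKM / library factor + 1), which understates the change of genes with low FPKM. DEGs are genes with an adjusted p under 0.05 (limma, Benjamini-Hochberg over all genes tested) and an absolute log2 fold change above 1. Of the 10989 genes tested there, 0.992% were DEGs higher in KD and 2.53% were DEGs lower in KD. Nothing is read from this count.

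In blastocysts, 2 of the 4 genes, Nkx2-9 and Foxj3, were DEGs higher in KD, where 6.06% of the 11828 genes tested were higher and 7.69% lower. The log2 fold change of Nkx2-9 was 2.88 (SE 0.21, adjusted p = 2.91e-06, limma), which ranked 12 of 11828 among increases. For Foxj3 it was 1.64 (SE 0.22, adjusted p = 0.000177, limma), rank 151. Both were higher in 4 of 4 KD libraries than in any control. Nkx2-9 and Foxj3 reached 1 FPKM only in KD libraries, so they could enter the test only by being high there, and the count of DEGs among the 4 genes is no support for a common response. With no filter on low FPKM the adjusted p was 0.000663 for Nkx2-9 and 0.00535 for Foxj3 (limma).

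Npy was not a DEG in blastocysts. Its log2 fold change was 0.90 (SE 0.25, adjusted p = 0.0131, limma), past the limit on p and short of that on size. Npy reached 1 FPKM in 4 of 8 libraries, and control replicate 5, at 1.34, was the only control among them. It thus passed the filter only with the KD libraries, where it was high, and its filtered p depends on this. With a pseudocount of 0.1 the same libraries gave 1.47 (adjusted p = 0.0140), and without control replicate 5 or KD replicate 4 they gave 1.01 and 1.14, each past both limits. With no filter on low FPKM the adjusted p of Npy was 0.0775. The blastocyst result for Npy therefore lies at the limit of the call.

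Foxa1 reached 1 FPKM in 1 of 8 blastocyst libraries and did not pass the filter of 1 FPKM in at least 3 libraries. An exact permutation test over the libraries (two-sided) gave p = 0.0286 for Foxa1, the smallest p that 4 against 4 libraries allow, with a mean difference of 0.75 on the log2 scale. This p is not adjusted over other genes. At FPKM this low the fold depends strongly on the pseudocount, and with 0.1 in place of 1 the difference was 2.60.

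In 2-cell embryos there was no DEG of either direction (0% of 12160 genes tested by limma, with 701 at an unadjusted p under 0.05). H2afz itself, with a log2 fold change of -2.53, had an adjusted p of 0.543 (limma), so a change of that size was not called in this fit. Only Foxj3 passed the filter there, with a log2 fold change of 0.54 (SE 0.25, adjusted p = 0.828, limma). The other genes were tested by exact permutation (two-sided, the smaller tail doubled), which gave p = 0.457 for Npy, 0.857 for Nkx2-9 and 0.743 for Foxa1, where the smallest p that 4 against 3 libraries allow is 0.0571. This test could not reach a p under 0.05 at any level of expression, and Npy, Nkx2-9 and Foxa1 were also near 0. A change of these genes could therefore not be called.

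Whether the KD effect differed between blastocysts and 2-cell embryos was tested as an interaction in 1 limma fit over the 15 libraries, a test chosen after the data were seen. For Nkx2-9 the KD effect was larger in blastocysts by 2.73 on the log2 scale (SE 0.26, adjusted p = 6.42e-06), where 4.54% of the 15281 genes tested were past both limits in this direction. Of these libraries Nkx2-9 reached 1 FPKM in the 4 KD blastocyst libraries alone, so it passed the filter only through the group where it was high. With no filter on low FPKM the adjusted p was 0.000184, within a range of 2.42e-06 to 0.00153 over its 19 alternatives. For Foxj3 the difference was 0.99 (SE 0.36, adjusted p = 0.0690), and for Npy 0.61 (SE 0.33, adjusted p = 0.228), neither past the limits. Npy too passed this filter only with the KD blastocyst libraries. Foxj3 passed both limits under 4 of its 19 alternatives, with 1.84 at a pseudocount of 0.1 (adjusted p = 0.0102, limma). Foxa1 did not pass the filter. The depth of the knockdown also differed between these stages, and its part in the difference was not tested.

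Over normal development, Foxj3 fell by 4.65 on the log2 scale from control 2-cell embryos to control blastocysts (SE 0.25, adjusted p = 1.05e-08, limma). It passed the filter only through the 2-cell libraries, where it was high, and with no filter the adjusted p was 3.29e-06, the highest of its 12 alternatives. The fall also rests on the uncertain 2-cell value of Foxj3, where reads of the overlapping Frg2f1 could not be told apart. Of the 14101 genes tested in this comparison, 32.9% were DEGs lower in blastocysts, so a fall was common among all genes. Npy was higher in control blastocysts than in control 2-cell embryos by 0.60 (exact permutation test, two-sided, p = 0.0286, the smallest possible), without overlap. The differences of Nkx2-9 (0.20, exact permutation p = 0.114) and of Foxa1 (-0.10, exact permutation p = 0.143) did not pass. The mean of Npy in control morulae was 3.62 times that in control blastocysts. For Foxa1 no fold is given, since control blastocysts were near 0. Among the control means Npy, Foxa1 and Nkx2-9 were each highest in morulae, though for Nkx2-9 the control morulae and control blastocysts overlapped.

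KD blastocysts can thus be set beside control morulae, as values only. Npy in KD blastocysts (0.983 to 3.61 FPKM) covered much the same range as in control morulae (1.41 to 4.35), and Foxa1 (0.503 to 1.09) reached the lower part of it (0.752 to 2.48). Nkx2-9 (6.10 to 10.9) was above every control morula library. Foxj3 (2.75 to 6.87) was above 3 of the 4 control morula libraries in every KD library, and its lowest value was below the fourth.

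Markers of stage and lineage moved with the KD in blastocysts. Over all 11828 genes tested there, 6.06% were DEGs higher and 7.69% DEGs lower in KD. Over the 10989 genes tested in morulae it was 0.992% and 2.53%, and the counts of DEGs in the lists below stand beside these shares. The summed FPKM of 10 trophectoderm markers was 3306, 3468, 2772 and 2427 in control and 1051, 1358, 1143 and 1061 in KD blastocysts, and 5 of the 10 were DEGs, all lower in KD. The DEGs were Dppa1, Gata2, Id2, Elf5 and, named after its values were seen, Krt18, which had the highest mean of the list over all 22 libraries, the measure behind the words most abundant for each list below (in control blastocysts 799 ± 149 FPKM against 390 ± 55.6 in KD, SD, n = 4 each). In control blastocysts alone Dppa1 was higher, at 1042 FPKM. Dppa1 fell by 2.56 on the log2 scale, Gata2 by 1.39, Id2 by 1.33 and Elf5 by 1.23 (limma, adjusted p = 8.59e-05, 0.00110, 0.000533 and 0.000510). Gata2 and Elf5 each reached 1 FPKM in 3 control and 0 KD libraries, so both passed the filter only through the controls, where they were high, and the count of 5 depends on it. The part that a different make-up or stage of the embryos had in the levels of Npy, Nkx2-9, Foxa1 and Foxj3 was not tested, and in pooled embryos fewer cells of a type and less RNA per cell cannot be told apart.

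Of 12 genes that mark 2-cell embryos, 3 were tested in blastocysts. Of these 2 were DEGs, Tcstv3 and Zfp352, both higher in KD, against 6.06% of all genes tested. Zfp352 reached 1 FPKM in 0 control and 4 KD libraries and Tcstv3 in 2 control and 3 KD libraries, so both passed the filter only with the KD libraries, and the count depends on it. Their list summed to 2.94, 3.56, 0.761 and 2.62 FPKM in control blastocysts and to 9.16, 21.2, 4.95 and 31.1 in KD blastocysts, against 465 to 763 in control 2-cell embryos. The part of these markers, or of a delay, in the level of Foxj3 was not tested.

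Among 10 epiblast markers, 1 of 6 tested was a DEG in morulae, where 2.53% of all genes tested were DEGs lower in KD. The marker was Nanog, which was lower in KD (106 ± 33.2, SD, n = 4, against 20.7 ± 10.8 FPKM, SD, n = 3). In blastocysts Nanog was not a DEG, at 132 FPKM in control and 161 in KD. There 2 of 8 tested were DEGs, Tdgf1 and Prdm14, both lower, against 7.69% of all genes tested. Prdm14 reached 1 FPKM in 4 control and 0 KD libraries, and so passed the filter only through the controls. The summed epiblast list was 211 to 264 FPKM in control and 109 to 168 in KD morulae, without overlap, and 192 to 309 FPKM in control and 158 to 309 in KD blastocysts. Of 10 primitive endoderm markers none of 2 tested in morulae and none of 4 tested in blastocysts was a DEG by limma (0 and 1 at an unadjusted p under 0.05). Over all genes tested 3352 of 10989 in morulae and 5439 of 11828 in blastocysts had such a p. Dab2, the most abundant of them, was at 128 FPKM in control and 143 in KD blastocysts. The labelled stages were matched by these lists, since trophectoderm markers were highest in blastocysts and 2-cell markers in 2-cell embryos.

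Other genes of the neural fate were near 0 in morulae and blastocysts. Of 20 neural markers, such as Pax6, Sox1 and Neurod1, none passed the filter in morulae or blastocysts, and their summed FPKM was 0.512 to 1.49 in control and 0.592 to 1.94 in KD morulae, and 0.238 to 0.509 in control and 0.750 to 1.20 in KD blastocysts. Tubb3, a neuronal tubulin and the most abundant of them over all 22 libraries, averaged 0.109 FPKM in control and 0.428 in KD blastocysts. In 2-cell embryos the list summed to 7.14 to 17.0 FPKM in control and 6.71 to 7.83 in KD libraries, mostly from Tubb3 (means of 8.89 and 5.39).

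Of 14 other markers of foregut and definitive endoderm, looked at beside Foxa1, 1 passed the filter, so the list as a whole was not tested. Only Hhex, a homeobox gene of early endoderm and the most abundant of the list, was tested. It was not a DEG in morulae and was higher in KD blastocysts (4.97 ± 1.46 against 1.78 ± 1.31 FPKM, SD, n = 4 each, log2 fold change 1.21, SE 0.30, adjusted p = 0.00768, limma), with 1 FPKM reached in 2 control and 4 KD libraries. Foxa2, the closest relative of Foxa1, was listed at 0 in all 22 libraries.

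The other 42 forkhead genes showed no DEG at any stage. By limma, 7 were tested in morulae, with a median log2 fold change of 0.12 against 0.015 over all genes tested, and 6 in blastocysts, with a median of -0.16 against 0.0047. At the 2-cell stage 8 were tested, with a median of 0.011 against 0.0035. An unadjusted p under 0.05 was found for 2 of those tested in blastocysts and for 0 at the other stages. Over all genes tested it was found for 5439 of 11828 in blastocysts, 3352 of 10989 in morulae and 701 of 12160 in 2-cell embryos. Foxn2, the most abundant, was at 33.2 FPKM in control and 38.7 in KD morulae, and at 13.7 and 16.2 in blastocysts. Foxj1, the namesake of the subfamily of Foxj3, was listed at 0 throughout.

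Among the 13 other genes named Nkx, Nkx6-2 alone was tested, in morulae and blastocysts. Nkx6-2, a homeobox gene of the ventral neural tube, was a DEG in blastocysts, at 0.368 ± 0.0729 FPKM in controls and 3.56 ± 1.88 in KD (SD, n = 4 each, log2 fold change 1.62, SE 0.24, adjusted p = 0.000345, limma). It reached 1 FPKM in 0 of 4 control and 4 of 4 KD libraries, and so passed the filter only through the group where it was high. In morulae it was not a DEG, with a log2 fold change of 0.75. Nkx2-1, which lies on chromosome 12 as well, had a mean of 0 FPKM in both blastocyst groups.

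Of 20 genes of the Hedgehog pathway, which in the neural tube acts upstream of Nkx2-9, 1 was tested in blastocysts. This was Gpr161, a receptor that holds the pathway in check, which was higher in KD (14.5 ± 4.71 against 3.42 ± 0.334 FPKM, SD, n = 4 each, log2 fold change 1.77, SE 0.21, adjusted p = 8.25e-05, limma). In morulae Gpr161 was not a DEG, with 19.0 FPKM in controls and 11.3 in KD. Of 15 genes of neuropeptide Y processing, receptors and relatives, 1 was tested in morulae and was not a DEG. In blastocysts 2 were tested, and Pyy, the gene of the related peptide YY, was lower in KD (0.504 ± 0.537 against 2.19 ± 0.691 FPKM, SD, n = 4 each, log2 fold change -1.12, SE 0.26, adjusted p = 0.00557, limma), with 1 FPKM reached in 4 control and 1 KD libraries. Npy itself was not a DEG there. The receptors Npy2r and Npy6r were listed at 0 in every library, and Dpp4, a protease that trims the peptide, was the most abundant of the list, at 4.73 FPKM in control and 2.07 in KD blastocysts.

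RNA of cells carried along with the embryos was looked at through 14 cumulus and granulosa and 8 spermatozoon and testis markers. None of the 2 cumulus and granulosa markers tested in morulae and in blastocysts was a DEG by limma (0 at an unadjusted p under 0.05). Over all genes tested 3352 of 10989 in morulae and 5439 of 11828 in blastocysts had such a p. Nr5a2, which embryos also express, made up most of the sum of this list (20.0 FPKM in control morulae, 7.84 in control blastocysts). Ptx3 and Fshr were listed at 0 in all libraries. No spermatozoon or testis marker passed the filter, and Prm2, the most abundant, was under 0.56 FPKM in every group mean.

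Nkx2-9 and Foxa1 lie 927 kb apart on the same strand of chromosome 12, so the genes between and around them were read as well. Within 500 kb of Nkx2-9, 3 of 20 genes were tested in blastocysts and 1 was a DEG, against 1626 of all 11828 genes tested. The neighbour called was Mbip (named after its values were seen), which was lower in KD (11.1 ± 1.62 against 24.1 ± 2.29 FPKM, SD, n = 4 each, log2 fold change -1.05, SE 0.18, adjusted p = 0.00103, limma). Of genes tested in morulae or blastocysts, the nearest on each side of Nkx2-9, Cox6c2 and Slc25a21, had log2 fold changes of -0.080 and 0.19 in blastocysts, neither a DEG. The nearer end of Slc25a21, its 3′ end, lies 99.3 kb from Nkx2-9. C87198, nearer than Cox6c2, was tested in 2-cell embryos only (log2 fold change 0.072, not a DEG). Within 500 kb of Foxa1 none of 3 tested genes of 13 was a DEG in blastocysts by limma (1 at an unadjusted p under 0.05, against 5439 of all 11828 genes tested). The nearest, Mipol1 at 43.4 kb, was at 1.83 FPKM in control and 1.16 in KD blastocysts. On the other side Ttc6 was tested in 2-cell embryos only (log2 fold change 0.13, not a DEG), and the nearest gene tested in blastocysts was Sec23a, 1410 kb away, with a log2 fold change of -0.11. No tested neighbour of Nkx2-9 or Foxa1 was a DEG higher in KD, against 6.06% of all genes tested in blastocysts and 0.992% in morulae.

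**Figure D2:**
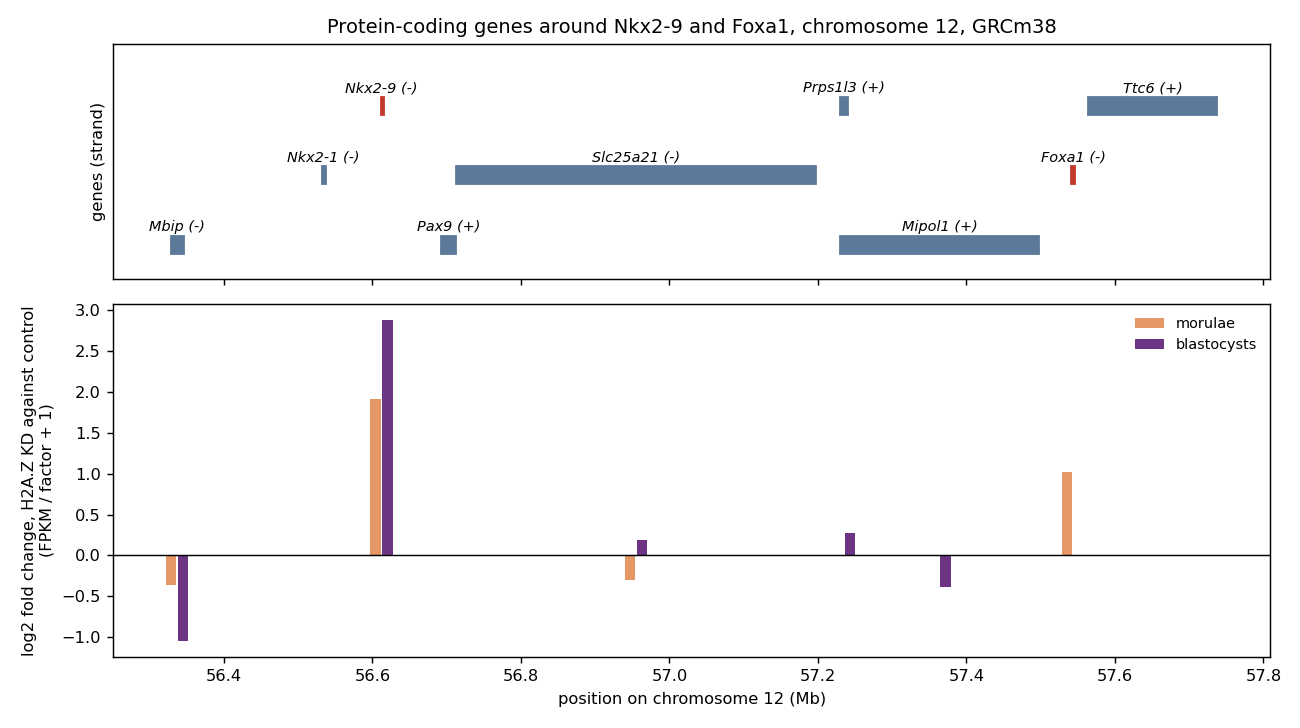
Protein-coding genes within 500 kb of Nkx2-9 and Foxa1 on chromosome 12 (upper panel, position in Mb, members in red) and their log2 fold change between H2A.Z KD and control in morulae (orange) and blastocysts (purple) where they passed the filter on low FPKM (lower panel). Nkx2-9 has the tallest bars, 1.92 in morulae and 2.88 in blastocysts, while Mbip has -0.36 and -1.05 and Slc25a21 -0.31 and 0.19.

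No gene within 200 kb of Npy passed the filter at any stage. Its nearest tested neighbours were Stk31, 353 kb before it, and Mpp6, 281 kb after it. Of 6 genes tested within 500 kb, Stk31 alone was a DEG in blastocysts, lower in KD (4.50 ± 1.35 FPKM in KD against 17.1 ± 3.51 in controls, SD, n = 4 each, log2 fold change -1.72, SE 0.24, adjusted p = 0.000215, limma). Over all genes tested in blastocysts 1626 of 11828 were DEGs, and nothing is read from the counts of DEGs among neighbours. Around Foxj3, 7 of 31 genes were tested in blastocysts and 2 were DEGs, both named after their values were seen. Ybx1 was higher in KD (log2 fold change 1.32, SE 0.23, adjusted p = 0.00107, limma) and Svbp lower (-1.98, SE 0.24, adjusted p = 9.05e-05, limma). The nearest gene before Foxj3 that was tested in blastocysts, Ppcs, was at 30.0 FPKM in control and 37.4 in KD blastocysts, and the nearest after it, Hivep3, did not pass the filter in blastocysts and had a log2 fold change of 0.099 in morulae. Rimkla, nearer than Ppcs, and the overlapping Frg2f1 were tested in 2-cell embryos only (log2 fold changes 0.13 and -0.23, neither a DEG). In morulae none of the tested neighbours of the 4 genes was a DEG by limma, with 3 of 6 around Npy, 1 of 3 around Nkx2-9, 0 of 2 around Foxa1 and 2 of 8 around Foxj3 at an unadjusted p under 0.05. Over all genes tested in morulae 3352 of 10989 had such a p, and nothing is read from the counts of neighbours. In 2-cell embryos none was a DEG and 0 had such a p.

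Likeness of pattern was measured as the Pearson correlation of log2(FPKM + 1) over the 22 libraries, which share stages and treatment, among 10704 named genes. Foxa1 was the gene most like Npy (r = 0.93), followed by Snord107, a small nucleolar RNA gene (0.93), and Ramp1, a partner of calcitonin family receptors (0.91). Most like Foxa1 were Hand1, a transcription factor of trophoblast and heart (0.96), Golt1a (0.95) and H60b (0.94). Like Foxa1, Hand1 was highest in KD morulae (7.39 FPKM against 3.62 in control morulae) and low in control blastocysts (0.0607). The genes most like Nkx2-9 were Plk2, a polo-like kinase gene known as a p53 target (0.96), F3, the gene of tissue factor (0.92), and Klrb1a (0.91). Plk2 had its highest means in the same 2 groups as Nkx2-9, with 16.9 FPKM in KD morulae and 26.7 in KD blastocysts against 6.05 and 3.31 in the controls. The genes most like Foxj3 were Rbbp6 (0.98), Spred1 (0.97) and Map4k5 (0.97), each highest in 2-cell embryos.

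Between the 4 genes the same measure takes in the morula libraries whose contrast chose them, so part of any likeness comes from the choice. It was 0.93 for Npy with Foxa1, 0.66 for Npy with Nkx2-9, 0.60 for Nkx2-9 with Foxa1, -0.46 for Npy with Foxj3, -0.33 for Foxa1 with Foxj3 and -0.27 for Nkx2-9 with Foxj3. The negative values came with the high 2-cell level of Foxj3. Over the 15 morula and blastocyst libraries Foxj3 with Nkx2-9 gave 0.88 and Foxj3 with Npy 0.58, while Npy with Foxa1 remained at 0.92. The other pairs gave 0.62 for Foxa1 with Foxj3, 0.47 for Npy with Nkx2-9 and 0.44 for Nkx2-9 with Foxa1. Of these 15 libraries 7 are the morula libraries, so the values are a description only. The order of the most alike genes depended on the measure.

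The promoters of the 4 genes are shown because H2A.Z is known from CpG-rich promoters. The sequences are from RefSeq (GRCm38.p6), in which all 4 genes were matched, and hold the 250 bases before the start of the gene, read 5′ to 3′ on the strand of the gene, with each CpG in capitals. They lie at chr6:49822460-49822709 (plus strand) for Npy, chr12:56613285-56613534 (minus strand) for Nkx2-9, chr12:57546112-57546361 (minus strand) for Foxa1 and chr4:119539411-119539660 (plus strand) for Foxj3. The RefSeq start of Foxa1 and that of Foxj3 lie inside the gene spans given above, so both genes have other annotated starts.
Npy: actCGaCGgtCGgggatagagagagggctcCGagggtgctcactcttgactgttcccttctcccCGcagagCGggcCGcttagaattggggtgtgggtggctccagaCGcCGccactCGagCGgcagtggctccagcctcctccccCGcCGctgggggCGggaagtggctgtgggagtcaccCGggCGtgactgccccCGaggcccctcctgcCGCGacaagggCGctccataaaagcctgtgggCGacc
Nkx2-9: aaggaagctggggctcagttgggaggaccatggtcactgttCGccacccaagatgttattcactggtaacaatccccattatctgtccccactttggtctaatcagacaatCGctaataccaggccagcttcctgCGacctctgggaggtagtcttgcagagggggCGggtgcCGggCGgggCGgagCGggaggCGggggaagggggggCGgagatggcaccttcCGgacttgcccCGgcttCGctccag
Foxa1: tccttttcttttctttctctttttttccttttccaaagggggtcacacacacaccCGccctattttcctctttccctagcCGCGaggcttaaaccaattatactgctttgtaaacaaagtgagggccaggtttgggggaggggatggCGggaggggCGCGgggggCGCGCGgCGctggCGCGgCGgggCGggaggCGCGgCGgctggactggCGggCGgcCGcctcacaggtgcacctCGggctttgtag
Foxj3: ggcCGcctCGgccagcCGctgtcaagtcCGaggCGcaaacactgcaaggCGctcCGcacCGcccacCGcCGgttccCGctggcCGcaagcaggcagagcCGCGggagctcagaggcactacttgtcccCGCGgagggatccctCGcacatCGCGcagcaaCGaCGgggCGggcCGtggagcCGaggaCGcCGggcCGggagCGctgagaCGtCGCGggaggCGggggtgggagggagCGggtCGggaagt
These windows held 21 CpG in Npy, 13 in Nkx2-9, 21 in Foxa1 and 34 in Foxj3, against a median of 6 over 32851 promoters, with quartiles at 2 and 16. Fewer CpG were found in 83.7% of promoters than in those of Npy and Foxa1, in 68.5% than in that of Nkx2-9 and in 96.5% than in that of Foxj3. The window of Foxj3 overlaps the annotated span of Frg2f1 on the other strand.

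A motif of forkhead factors, TGTTTAC on either strand, was found in the window of Foxa1 alone among the 4 genes, and in 3.17% of all promoters. The match is the reverse complement, at chr12:57546246-57546252, shown in capitals with its surroundings.
Foxa1 match: tatactgctttGTAAACAaagtgagggcc
The NK2 core CACTT on either strand was found once each in Npy, Nkx2-9 and Foxa1 and in 40.7% of all promoters, and in Foxa1 it directly follows the forkhead match. TATAAA on either strand, which 12.4% of promoters held, was found in none of the 4 windows.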

How the data were processed

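The authors aligned reads to mm10 (GRCm38) with STAR and deposited FPKM per gene made with StringTie 2.1.4. Their gene annotation is not given in the sources used here. All 22 libraries were used, and 54587 of 55335 gene identifiers matched the GRCm38 annotation. Within each comparison FPKM were divided by a median-of-ratios factor per library and log2-transformed after adding 1. Genes with at least 1 FPKM in at least 3 libraries were fitted with limma 3.58.1 (R 4.3.3, eBayes with trend), with Benjamini-Hochberg adjustment over all genes tested. The fit was tested on simulated data. Genes below the filter were tested by exact permutation (scipy 1.17.1, two-sided). Alternatives were a pseudocount of 0.1, no filter, FPKM as deposited, no trend and leaving out each library, and for the KD effects within a stage also a replicate block and the range of replicate numbers.

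The members and the 12 gene lists (forkhead family, NK homeobox family, neuropeptide Y system, Hedgehog pathway and markers of neural, foregut and definitive endoderm, primitive endoderm, trophectoderm, epiblast, 2-cell embryo, cumulus and granulosa, and spermatozoon and testis cells) were chosen with earlier results of these data known. Lists were counted without the members. Genes named were the members, H2afz, at most 4 DEGs per direction, stage and list in morulae and blastocysts, the 3 most alike genes of each member, the nearest gene on each side tested in morulae or blastocysts and the most abundant gene of each list. Other genes were picked with their values in view. Motifs were searched in 250 bases before each start.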

Additional observations from a re-analysis of the deposited data

Results flagged for a closer look

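Nkx2-9 in control morulae had 1 library far from the others, replicate 1 at 1.44 FPKM, where the gap to the next library took 0.943 of the range of the group. In control 2-cell embryos replicate 4, at 0.278 FPKM, was the only library with Nkx2-9 above 0. Of 20 groups of 4 libraries looked at in this way for the 4 genes and H2afz, these were the 2 that stood out, where chance gives about 1 in 20 groups. In the 2-cell group the other 3 libraries were at 0, so any value above 0 would have stood out and the chance rate does not apply to it. The control morula values are part of the contrast that chose Nkx2-9, so the rate does not apply to them either. Both groups are named as a description only. The KD effect on Nkx2-9 differed between stages. It was larger in blastocysts than in 2-cell embryos by 2.73 on the log2 scale (limma interaction, adjusted p = 6.42e-06, higher in 4 of 4 KD blastocyst libraries than in any control). Nkx2-9 passed the filter of this fit only through the KD blastocysts, where it was high, and with no filter the adjusted p was 0.000184 (limma). At the 2-cell stage Nkx2-9 was near 0, and the permutation test used there could not reach a p under 0.05, so a change could not be called.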

How the results depend on the processing

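The increases of Nkx2-9 and Foxj3 in blastocysts were past both limits under all 14 alternatives, with log2 fold changes from 2.74 to 4.71 and from 1.48 to 2.48. The fall of Foxj3 from control 2-cell embryos to control blastocysts was so under all 12, and the difference of Nkx2-9 between stages under all 19. Npy in blastocysts ranged from 0.72 to 1.14 over the left-out libraries, with adjusted p from 0.00179 to 0.0775 over all 14 alternatives, and reached 1.47 with a pseudocount of 0.1. The difference of Foxj3 between blastocysts and 2-cell embryos passed both limits with a pseudocount of 0.1 (1.84) and with FPKM as deposited (1.17), and ranged from 0.83 to 1.20 over the left-out libraries, passing without control 2-cell replicate 4 (1.20, adjusted p = 0.0247) and without KD blastocyst replicate 6 (1.17, adjusted p = 0.0378). The cause was not tested. In 2-cell embryos a pseudocount of 0.1 gave differences of 0.66 for Npy and -0.25 for Foxa1.

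The number of DEGs was 387 in morulae (109 higher and 278 lower in KD, 71 and 424 with FPKM as deposited), 789 with a pseudocount of 0.1 and 169 with no filter, which tests more genes. In blastocysts it was 1626, and 2477 with a pseudocount of 0.1. In 2-cell embryos it was 0, and from 0 to 3 over the left-out libraries (1 without control replicate 2, 3 without KD replicate 1). With FPKM as deposited the median log2 fold change of all genes in morulae was -0.085 in place of 0.015. Of the 3 most alike genes, the Spearman correlation kept 0 for Npy, 1 for Nkx2-9, 0 for Foxa1 and 1 for Foxj3, and the 15 morula and blastocyst libraries kept 2, 1, 0 and 0. Within 200 kb there were 0 DEGs at any stage by limma, but few genes were tested there (in blastocysts 0 around Npy and 1 around each of the others).

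Libraries with the same number correlated in their deviations at 0.209, 0.015 and 0.214 in 2-cell embryos, where each KD library was most like the control of its own number (a hint from the data, not the design), at 0.181 and 0.094 in morulae, and from -0.111 to 0.354 in blastocysts. At no stage was every pair over 0.1, so the numbers were not taken as pairing. With a replicate block there were 514 DEGs in morulae (218 higher and 296 lower), 1632 in blastocysts and 0 in 2-cell embryos, and the calls of Npy, Nkx2-9 and Foxj3 in blastocysts and of Foxj3 in 2-cell embryos were the same. In morulae only replicates 1 and 2 had a library in both groups. The block fit there rests on these 2 pairs, and nothing is read from its count. The permutation tests of Foxa1 in blastocysts and of Npy, Nkx2-9 and Foxa1 in 2-cell embryos had no block, nor had the comparisons between stages. Leaving out 1 library leaves 4 against 3, where the exact permutation test of Foxa1 in blastocysts cannot go below 0.0571.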
